A study of Homo sapiens with 12 samples.

Results

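Untreated cells of the human leukemia line K562 were described here, in the 3 libraries labelled control out of the 12 libraries of the series. They were taken by that label alone, and no measured value was used to choose them. K562 was established from chronic myelogenous leukemia in blast crisis and carries the BCR::ABL1 fusion kinase. The other 9 libraries, 3 per group, came from K562 cells kept for 12 h with 25 µM MLN4924, 0.5 µM imatinib or imatinib + MLN4924. MLN4924 blocks the enzyme that activates the ubiquitin-like protein NEDD8, and imatinib blocks the ABL1 kinase. The labels give the control group no drug, and they do not say whether it received the solvent of the drugs. Every group is the same cell line. Nothing states that the 3 control libraries came from separate cultures, so each SD given here measures the spread between these libraries, which may be technical.

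K562 cells are leukemic cells held near the erythroid and megakaryocyte branch of blood formation. In that branch GATA1, with TAL1, LMO2, LDB1 and KLF1, turns on the genes of heme, globin and the red cell membrane. FLI1 and ERG support platelet-forming megakaryocytes, SPI1 and the C/EBP factors direct granulocytes and monocytes, and PAX5 and EBF1 direct B cells. Human globin genes are used in the order of development, embryonic before fetal and fetal before adult. BCR::ABL1 keeps STAT5, RAS-ERK and PI3K signalling switched on, which lets the cells divide without growth factors.

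RNA labelled polyA was sequenced, and the deposited values are TPM, an abundance per transcript length scaled to the same total in each library. TPM can therefore be compared between genes, but the reads behind a value cannot be recovered from it. Sequencing depth is therefore unknown here, and intervals for counting error are left out. A gene is called present at 1 TPM or more in all 3 libraries and listed at 0 where all 3 hold exactly 0, and an exact 0 can also be a failed estimate. The 140 ribosomal protein, proteasome, polymerase, ATP synthase and tRNA synthetase genes that every cell uses were all present. The lowest of their means was 45.4 TPM, so they do not show how often the estimate of a less abundant gene fails. Their lists were also chosen with earlier results of these data known. Over 19967 protein-coding genes the libraries correlated at r = 0.994 to 0.996 on the log2(TPM + 1) scale, a figure across genes, which are not independent replicates. Genes are said to differ in level where all 3 libraries of one lay above all 3 of the other, with no test.

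Of the protein-coding genes, 10890 of 19967 (54.5%) were present, with a median level of 19.8 ± 0.282 TPM (SD, n = 3). Counts of present genes per list, given below, are to be read beside this share. Counts of listed genes at 0 are to be read beside the 23.8% of all protein-coding genes at 0. Among all 61541 genes with an Ensembl identifier, 14099, 13958 and 13937 reached 1 TPM in controls 1, 2 and 3, and 13000 did so in all 3. The abundance was concentrated in few genes. The 10 most abundant genes held 12.7 ± 0.421% of the total, the top 100 held 38.6 ± 0.256% and the top 1000 held 69.1 ± 0.119% (SD, n = 3 each). It took 227, 221 and 222 genes to reach 50% of the TPM in the 3 libraries. Protein-coding genes took 93.0 ± 0.175% of the TPM, long noncoding RNAs 2.18 ± 0.0692%, the ribosomal RNAs of the mitochondrion 1.69 ± 0.0284% and processed pseudogenes 1.44 ± 0.0632% (SD, n = 3 each).

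The head of the list belonged to the mitochondrial chromosome and to the machinery of translation. Of the 30 genes with the highest mean, 11 lay on the mitochondrial chromosome, 13 encode cytosolic ribosomal proteins and 3 are globins. The other 3 were EEF1A1, FTL and PPIA. The same 10 genes led all 3 libraries, and 28 genes were among the top 30 in each. EEF1A1 (ENSG00000156508, chromosome 6 from 73489308 to 73525587), which brings charged tRNAs to the ribosome, was the highest gene of the nucleus, at 12952, 14036 and 14200.4 TPM in controls 1, 2 and 3. HBG2, a fetal globin, came next among nuclear genes, with all 3 libraries below all 3 of EEF1A1. FTL (ENSG00000087086, chromosome 19 from 48965309 to 48966879), the light chain of the iron store ferritin, stood at 5091, 5387 and 5306 TPM. PPIA (ENSG00000196262, chromosome 7 from 44796680 to 44824564), the prolyl isomerase cyclophilin A, stood at 4936, 5070.4 and 4146 TPM and was lowest in control 3.

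**Figure D1:**
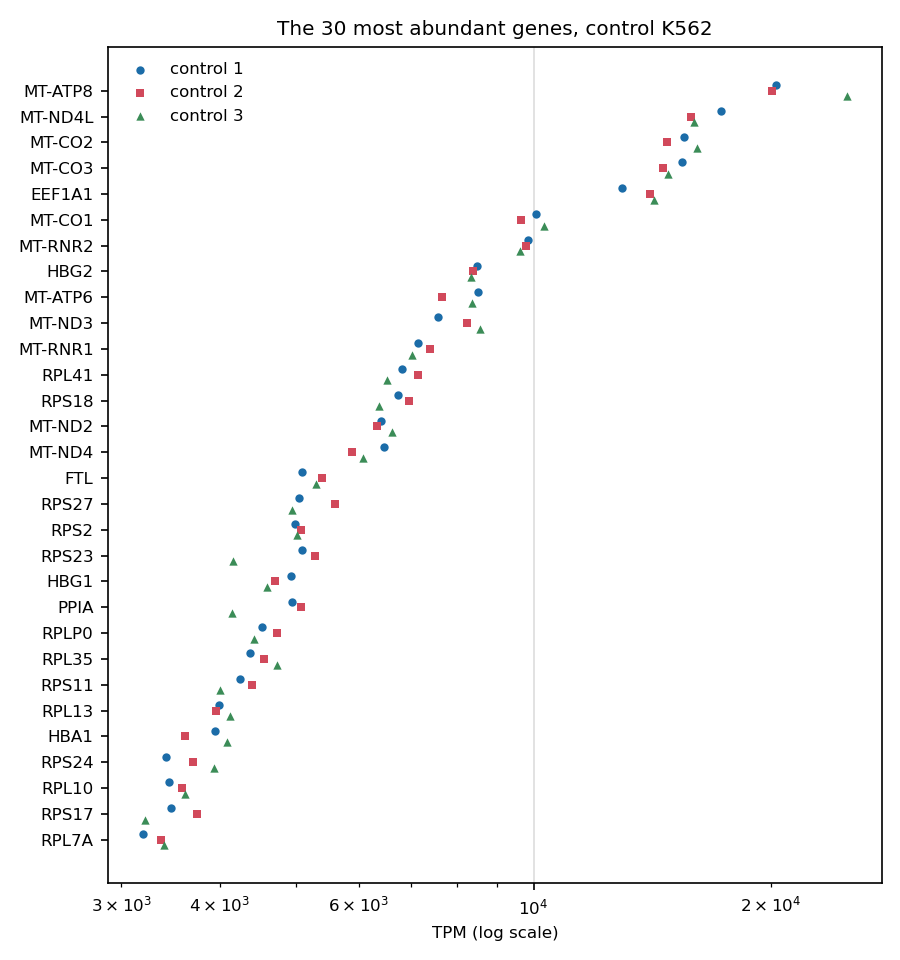
The 30 genes with the highest mean TPM in control K562 cells (log axis), each with 1 point per library (controls 1, 2 and 3). Of the first 10 places 8 are mitochondrial genes, beside EEF1A1 and HBG2, and MT-ATP8 is highest in control 3, at 24964 TPM.

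Ribosomal proteins, the mitochondrial chromosome, globins and glycolytic enzymes together held 34.8%, 34.9% and 35.1% of the TPM in controls 1, 2 and 3. The 79 cytosolic ribosomal protein genes held 18.3%, 19.05% and 18.3%, a mean of 18.6 ± 0.42%. The 37 genes of the mitochondrial chromosome held 13.2%, 12.8% and 13.6%, a mean of 13.2 ± 0.428%. The order of these families was the same in all 3 libraries, and no library of one overlapped another family. Globins, 10 genes, held 2.11%, 2.03% and 2.09%, a mean of 2.08 ± 0.0385%. The 28 glycolytic enzyme genes held 1.16%, 1.09% and 1.11%, a mean of 1.12 ± 0.0369% (SD, n = 3 each).

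**Figure D2:**
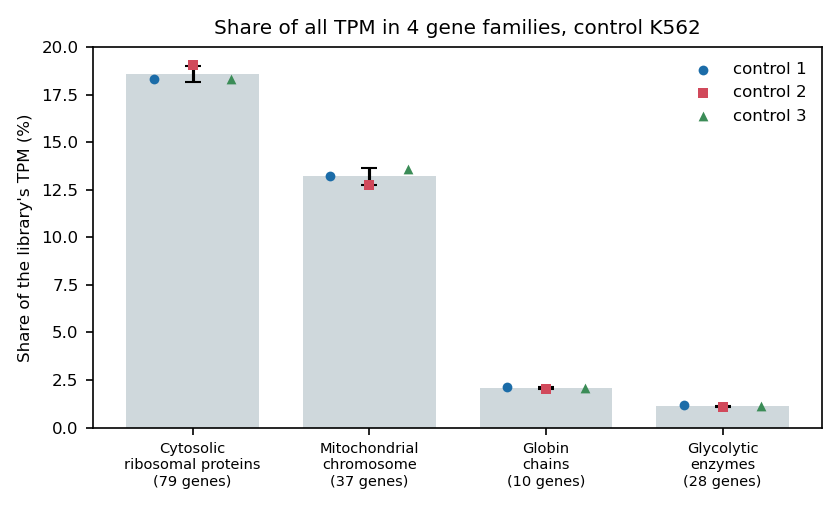
Percent of the total TPM held by 4 gene families in control K562 cells, with bars at the mean, error bars of 1 SD and 1 point per library (n = 3). Ribosomal protein genes hold 18.6%, genes of the mitochondrial chromosome 13.2%, globins 2.08% and glycolytic enzymes 1.12%.

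The mitochondrial chromosome encodes 13 proteins of the respiratory chain, 2 ribosomal RNAs and 22 tRNAs, and both strands are copied as long transcripts that are then cut into single RNAs. Of its protein genes 12 were present, all on 1 strand. Its 7 genes of complex I, which takes electrons from NADH, held 4.23 ± 0.0741% of the TPM, and the 3 of complex IV, which passes them to oxygen, held 4.04 ± 0.125% (SD, n = 3 each). The 2 of ATP synthase held 2.99 ± 0.299% and MT-CYB, of complex III, held 0.238 ± 0.0199% (SD, n = 3 each). Within complex IV the gene of its largest subunit, MT-CO1, was lowest. MT-CO2 stood at 15501, 14756 and 16140.2 TPM in controls 1, 2 and 3 and MT-CO3 at 15448, 14593 and 14821 TPM, with overlapping libraries. MT-CO1 stood at 10085, 9650.2 and 10317 TPM, below both in every library. The 2 highest values belonged to the 2 shortest protein genes of this chromosome. MT-ATP8, of 207 bases, stood at 20309.6, 20039 and 24964 TPM and shares 46 bases with MT-ATP6, which stood at 8502, 7652 and 8367 TPM. MT-ND4L, of 297 bases, stood at 17300.3, 15856 and 15981 TPM and shares 7 bases with MT-ND4, which stood at 6458, 5889 and 6075 TPM. Reads in the shared bases cannot be assigned to a single gene of such a pair, but most bases of each gene are not shared. Whether the short length of MT-ATP8 and MT-ND4L raised their TPM was not tested.

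MT-ND6, the only protein gene of the other strand, was at 0, 0 and 69.6 TPM in controls 1, 2 and 3, and at 0 in all 9 drug-treated libraries. It was thus listed at 0 in 11 of 12 libraries, beside MT-ND5, its neighbour on the opposite strand, at 2383, 2257 and 2159 TPM in the controls. All 22 tRNA genes of this chromosome were listed at 0 in all 3. An exact 0 can be a failed estimate, and RNA labelled polyA can miss RNAs without a poly(A) tail. These zeros thus do not show that the tRNAs or the RNA of MT-ND6 were absent. MT-RNR2, the RNA of the large mitochondrial ribosome subunit, stood at 9829.9, 9781 and 9601 TPM. MT-RNR1, that of the small subunit, stood at 7130.1, 7389.7 and 7008 TPM, below MT-RNR2 in every library, with a ratio of 1.36 ± 0.0296 (SD, n = 3) of large over small.

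All 79 cytosolic ribosomal protein genes were present, and 69 had a mean of 1000 TPM or more. The 47 proteins of the large subunit had a median of 2094 TPM and the 32 of the small subunit a median of 2309 TPM. Although each ribosome holds about equal numbers of these proteins, the levels of their RNAs ran from 566 TPM (RPS26) to 6825 TPM (RPL41). RPL41, which encodes the shortest protein of the ribosome, stood at 6817, 7138 and 6520.2 TPM in controls 1, 2 and 3. RPS18, of the small subunit, stood at 6739, 6949.9 and 6364 TPM. RPS27, a zinc finger protein of the small subunit, stood at 5036, 5606 and 4934 TPM. At the low end RPS14, a small subunit protein whose loss causes a red cell disorder in deletions of the long arm of chromosome 5, stood at 667, 635 and 555 TPM. RPS26 stood at 554, 529 and 614 TPM. The libraries of these 2 genes overlapped, and both lay below RPL41, RPS18 and RPS27 in every library.

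Ribosomal protein RNAs carry a run of pyrimidines that begins with a C at the first transcribed base, through which cells adjust their translation to nutrients. The first bases of 4 of the most abundant translation genes are shown as examples of this run. For each gene the first annotated start with a C and at least 4 pyrimidines was taken, so the run was fixed by that choice. Each sequence has 20 bases before and 20 from the start in RefSeq (GRCh38.p14), with the pyrimidine run from the first transcribed base in capitals. EEF1A1 is read from chr6:73521013-73521052 (minus strand), RPL41 from chr12:56116613-56116652 (plus strand), RPS18 from chr6:33272055-33272094 (plus strand) and RPS27 from chr1:153990742-153990781 (plus strand).
EEF1A1: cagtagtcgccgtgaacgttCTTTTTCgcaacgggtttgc
RPL41: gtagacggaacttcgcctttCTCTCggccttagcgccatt
RPS18: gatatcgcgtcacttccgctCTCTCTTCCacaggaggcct
RPS27: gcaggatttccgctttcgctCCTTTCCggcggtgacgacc

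A start window was found for 63 of the 79 ribosomal protein genes. A C followed by at least 4 pyrimidines at the annotated start was found in 47 of these 63 (74.6%), counted on the strand of the gene where any of its windows held it. Of all 27305 genes with a window 5.14% held it. Of the elongation factors 3 of 6 did, of the core proteasome subunits 1 of 10 and of the tRNA synthetases 1 of 16. A match describes the annotated start and was not tested as a working element.

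All 8 listed elongation factor genes were present, over a wide range of levels. EEF1G, of the exchange complex that recharges the elongation factor, stood at 2199, 2357 and 2423 TPM in controls 1, 2 and 3. EEF2, which moves the ribosome along, stood at 1556, 1545 and 1555 TPM. EEF1A2, the copy of EEF1A1 used in muscle and brain, stood at 54.5, 42 and 39.1 TPM, and EEF1A1 was 312 ± 65.5 times as high (SD, n = 3). Of 8 paralogs of ribosomal protein genes 6 were present, led by RPL36AL at 302, 282 and 263 TPM. RPL39L, a form used in the testis, stood at 21.6, 20.3 and 17.5 TPM, and RPL3L, the form of muscle, was at 0, 0 and 0.04 TPM.

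Some reads of this family were assigned to processed pseudogenes, copies of an mRNA placed back into the genome. The table holds 1570 pseudogenes named after ribosomal protein genes, of which 30 were present, and they held 0.79 ± 0.0674% of the TPM (SD, n = 3). In 2 cases the mean of the pseudogene lay above that of the gene. RPL36AP37 (ENSG00000244398) stood at 2276, 2543 and 3141 TPM and RPL36A at 797, 791 and 806 TPM in controls 1, 2 and 3. All 321 bases of RPL36AP37 are identical to a stretch of the RPL36A transcript. RPL23AP42 (ENSG00000234851) stood at 2322, 2385 and 2170.0 TPM and RPL23A at 625, 630 and 659.7 TPM, and 469 of 471 bases are identical. RPL39P3 and RPS28P7 were identical to RPL39 and RPS28 over their whole length of 156 and 210 bases, with means of 1714 and 664 TPM. Reads within identical stretches cannot be told apart, so the levels of these 4 parent genes are uncertain.

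The beta-like globin RNA of untreated K562 was mostly fetal, with a small embryonic part and almost no RNA of the adult beta chain. HBG2 (ENSG00000196565, chromosome 11 from 5253188 to 5505605) stood at 8474, 8376 and 8324 TPM in controls 1, 2 and 3. HBG1 (ENSG00000213934, chromosome 11 from 5248269 to 5249857) stood at 4919, 4696 and 4590.5 TPM. These encode the gamma chains of fetal hemoglobin, and together they held 96.2 ± 0.0724% of the TPM of the beta-like cluster (SD, n = 3). HBE1, which encodes the epsilon chain of the embryo (ENSG00000213931, chromosome 11 from 5268345 to 5505652), stood at 526, 502 and 484 TPM and held 3.69 ± 0.0841% (SD, n = 3). HBD, the minor adult delta chain, stood at 10.7, 10.7 and 10.1 TPM. HBB (ENSG00000244734, chromosome 11 from 5225464 to 5229395), the adult beta chain, stood at 2.07, 2.44 and 5.36 TPM, highest in control 3. HBD lay above HBB in every library, and both together held 0.101 ± 0.0123% of the cluster (SD, n = 3). The spans of HBG2 and HBE1 include annotated forms that reach far upstream.

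Of the 5 beta-like genes all were present, and of the 5 alpha-like genes 4. In the alpha-like cluster the adult and the embryonic genes were both high. HBA1 (ENSG00000206172, chromosome 16 from 176680 to 177522) stood at 3948, 3610.2 and 4088 TPM in controls 1, 2 and 3. HBZ, which encodes the zeta chain of the embryo (ENSG00000130656, chromosome 16 from 142728 to 154503), stood at 1662, 1778 and 1714 TPM and held 24.2 ± 1.86% of the cluster (SD, n = 3). HBA2 stood at 1490.0, 1312 and 1589 TPM, below HBZ in every library. HBQ1, the theta gene, whose product is not known to enter hemoglobin, stood at 57.1, 51.2 and 60.5 TPM. HBM, the mu gene, was listed at 0 in all 3 controls and reached 1.38 TPM in the drug-treated libraries, of which 4 were also at 0. The beta-like genes summed to 1.92 ± 0.109 times the alpha-like genes (SD, n = 3), and beta-like exceeded alpha-like in all 3 libraries.

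The split within each gene pair is less certain than its sum. The transcripts of HBG1 and HBG2 differ at 5 of 587 aligned bases and those of HBA1 and HBA2 at 20 of 579. HBG2 read 1.77 ± 0.0462 times as high as HBG1, and HBA1 2.66 ± 0.0902 times as high as HBA2 (SD, n = 3 each). Another protein-coding gene model, ENSG00000284931 (chromosome 11 from 5248270 to 5254783), spans HBG1 and the end of HBG2 on the same strand, and it stood at 2384, 2373 and 2549.5 TPM. ENSG00000239920 (chromosome 11 from 5254392 to 5678434), a model on the same strand that ends within HBG2, stood at 36.1, 37.7 and 32.7 TPM. With both models counted, which was decided once the values were known, globins held 2.32% of the TPM in place of 2.08%.

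**Figure D3:**
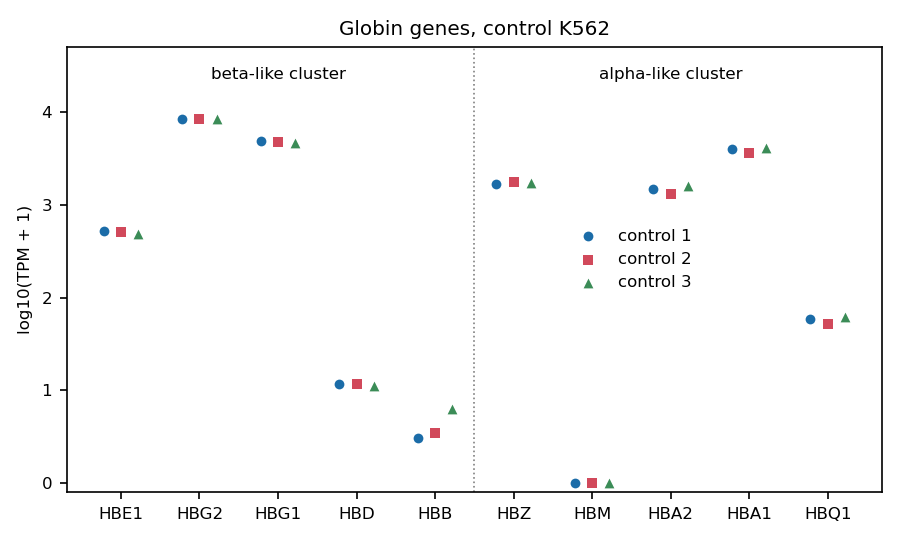
Levels of the 10 globin genes in control K562 cells as log10(TPM + 1), in chromosomal order within each cluster, with 1 point per library. The gamma genes HBG2 and HBG1 and the alpha-like genes HBZ, HBA2 and HBA1 lie above 1000 TPM, HBB lies between 2.07 and 5.36 TPM, and HBM is at 0.

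Promoters of 3 genes are shown because they hold the letters that GATA factors bind, GATAA, or TTATC on the other strand, at similar distances from the start while the levels of the genes differ. KLF1, an activator of adult beta globin, stood at 164, 148 and 129.7 TPM, while HBD and HBM had the low levels given above. Each window runs from 250 bases before to 50 after the start in RefSeq (GRCh38.p14) and is read on the strand of the gene, KLF1 from chr19:12887152-12887451 (minus strand), HBD from chr11:5234434-5234733 (minus strand) and HBM from chr16:165728-166027 (plus strand). Capitals mark the match, which begins 66, 78 and 63 bases before the start in KLF1, HBD and HBM.
KLF1: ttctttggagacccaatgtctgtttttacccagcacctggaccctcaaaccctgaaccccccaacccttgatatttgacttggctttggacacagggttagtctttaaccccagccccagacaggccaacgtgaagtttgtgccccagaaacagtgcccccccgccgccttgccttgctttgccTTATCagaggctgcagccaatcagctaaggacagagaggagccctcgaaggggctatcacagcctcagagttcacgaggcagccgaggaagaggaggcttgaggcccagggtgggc
HBD: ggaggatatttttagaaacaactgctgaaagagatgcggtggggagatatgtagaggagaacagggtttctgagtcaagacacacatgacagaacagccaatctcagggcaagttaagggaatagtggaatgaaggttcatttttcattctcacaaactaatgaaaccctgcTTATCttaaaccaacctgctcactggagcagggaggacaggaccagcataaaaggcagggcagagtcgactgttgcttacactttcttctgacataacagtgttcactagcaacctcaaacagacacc
HBM: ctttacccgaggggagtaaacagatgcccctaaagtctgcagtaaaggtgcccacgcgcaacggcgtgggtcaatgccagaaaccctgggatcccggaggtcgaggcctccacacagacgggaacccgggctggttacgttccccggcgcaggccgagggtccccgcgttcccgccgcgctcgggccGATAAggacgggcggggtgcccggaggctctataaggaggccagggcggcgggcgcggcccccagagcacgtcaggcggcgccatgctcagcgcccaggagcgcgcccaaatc

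Among genes with such a window, GATAA or TTATC was found in 14 of 18 erythroid marker genes (77.8%), in 8 of 19 erythroid and megakaryocyte regulators and in 4 of 9 heme synthesis genes. Of all 27305 genes 26.6% held it. The longer AGATAA, or TTATCT, was found in 11 of 18 erythroid markers (61.1%) and in 12.4% of all genes. Neither was found in 12 granulocyte and monocyte markers or in 6 lymphoid markers. Every AGATAA holds a GATAA, and genes with several windows were counted once where any of them held it.

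Genes of the red cell were present almost throughout. Of 26 erythroid markers 25 were present. RHAG (ENSG00000112077, chromosome 6 from 49605175 to 49636839), the Rh-associated ammonium channel of the red cell membrane, stood at 463, 446 and 482 TPM in controls 1, 2 and 3. GYPC, glycophorin C, which ties the membrane to its skeleton, stood at 381, 356 and 307 TPM, below RHAG in every library. TFRC, the transferrin receptor that brings in iron, stood at 161, 138 and 155 TPM. ANK1, the ankyrin of the membrane skeleton, stood at 118, 112 and 108 TPM. Genes of the last steps of the red cell were low. SLC4A1, the anion exchanger band 3, stood at 1.32, 1.01 and 2.13 TPM. EPB42, which links band 3 to the skeleton, was under 1 TPM, at 0.22, 0.24 and 0.33. AHSP, the chaperone of free alpha globin, stood at 3.66, 13.2 and 4.34 TPM and was highest in control 2. EPOR, the receptor of erythropoietin, stood at 12.6, 9.44 and 10.8 TPM.

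All 12 genes of heme synthesis were present. Heme is built from glycine and succinyl-CoA in a chain of steps, of which the first is done by ALAS1 in most cells and by ALAS2 in red cell precursors. ALAS2 (ENSG00000158578, chromosome X from 55009055 to 55030977) stood at 43, 38.4 and 41.1 TPM and ALAS1 (ENSG00000023330, chromosome 3 from 52198086 to 52214327) at 33.2, 33.5 and 36 TPM, with ALAS2 above ALAS1 in every library by 1.19 ± 0.0881 times (SD, n = 3). UROD, which trims the side chains of uroporphyrinogen, was the highest enzyme, at 930.2, 852 and 829 TPM. ALAD, which forms the pyrrole ring, was the lowest, at 12.8, 12.1 and 13.9 TPM. FECH, which inserts the iron, stood at 107, 94.9 and 102 TPM.

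Iron storage genes were far above those of uptake and export. FTH1, the ferritin heavy chain, stood at 2248, 2184 and 2021 TPM, below FTL in every library, with a ratio of 2.45 ± 0.181 of light over heavy (SD, n = 3). TFR2, the receptor that senses transferrin, stood at 39.5, 38.5 and 35.5 TPM. SLC40A1, the iron exporter ferroportin, stood at 23.5, 21.1 and 24.5 TPM. HMOX1, the inducible heme oxygenase, was listed at 0 in all 12 libraries, beside HMOX2, the constant form, at 75.2, 72.9 and 77.9 TPM in the controls.

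Most regulators of the erythroid and megakaryocyte branch were present, and most of those for granulocytes, monocytes and lymphocytes were not. Over 61 lineage regulators 34 were present and 13 listed at 0, close to the shares of all protein-coding genes (54.5% and 23.8%). Of 24 erythroid and megakaryocyte regulators 21 were present, of 10 for granulocytes and monocytes 3, of 14 for lymphocytes 2 and of 13 for stem cells and early progenitors 8. GATA1 (ENSG00000102145, chromosome X from 48786540 to 48794311) was the highest of the 61, at 206, 195 and 189 TPM in controls 1, 2 and 3. GATA2 (ENSG00000179348, chromosome 3 from 128479427 to 128493201), which GATA1 replaces as red cells mature, stood at 80, 91.8 and 94.3 TPM, and GATA1 read 2.23 ± 0.301 times as high (SD, n = 3). KLF1 (ENSG00000105610, chromosome 19 from 12884422 to 12887201) lay below GATA1 in every library. NFE2, a factor of globin and platelet genes, stood at 154, 147 and 147 TPM. TAL1 stood at 31.3, 28.4 and 28.5 TPM and its partners LMO2 at 68.2, 60.2 and 50.3 TPM and LDB1 at 117, 109 and 101 TPM. MYB, which keeps progenitors dividing and the gamma genes low, stood at 105, 119 and 124 TPM.

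The repressors of fetal globin were unlike each other. BCL11A (ENSG00000119866, chromosome 2 from 60450520 to 60554467), the main switch from gamma to beta globin, was at 0.03, 0 and 0.03 TPM in controls 1, 2 and 3, and at 0 in 8 of the 9 drug-treated libraries. ZBTB7A, an independent repressor of the gamma genes, stood at 10.5, 11.6 and 8.6 TPM. SOX6, a partner of BCL11A, stood at 7.75, 10.1 and 4.16 TPM, lowest in control 3. IGF2BP1, IGF2BP3 and LIN28B, RNA-binding proteins of the fetal stage, were all present. LIN28B (ENSG00000187772, chromosome 6 from 104936616 to 105083332) stood at 17.8, 17.7 and 20.7 TPM. LIN28A, its relative of the embryo, stood at 13.2, 13.1 and 14.5 TPM, below LIN28B in every library. IGF2BP1 stood at 49.7, 48 and 51 TPM.

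FLI1 (ENSG00000151702, chromosome 11 from 128686535 to 128813267) and ERG (ENSG00000157554, chromosome 21 from 38380027 to 38661780), the ETS factors of megakaryocytes and stem cells, were listed at 0 in all 12 libraries. RUNX1, which works beside them, stood at 15.9, 15.7 and 14.7 TPM. SPI1, the ETS factor of granulocytes and monocytes that opposes GATA1, stood at 4.61, 5.28 and 3.66 TPM, and GATA1 read 44.4 ± 7.3 times as high (SD, n = 3). CEBPB stood at 9.69, 13.3 and 7.24 TPM, while CEBPA, the first C/EBP factor of granulocytes, was under 1 TPM, at 0.53, 0.34 and 0.48. CEBPE and IRF8 were listed at 0 in all 3 controls. PAX5, EBF1, BCL11B and TBX21, of B and T cells, were listed at 0 in all 12 libraries. TCF7, a T cell factor, stood at 5.66, 5.93 and 5.55 TPM. HOXB4 stood at 19.7, 21.7 and 16.2 TPM, whereas HOXA9 and HOXA10, high in many acute leukemias, were listed at 0 in all 3 controls.

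**Figure D4:**
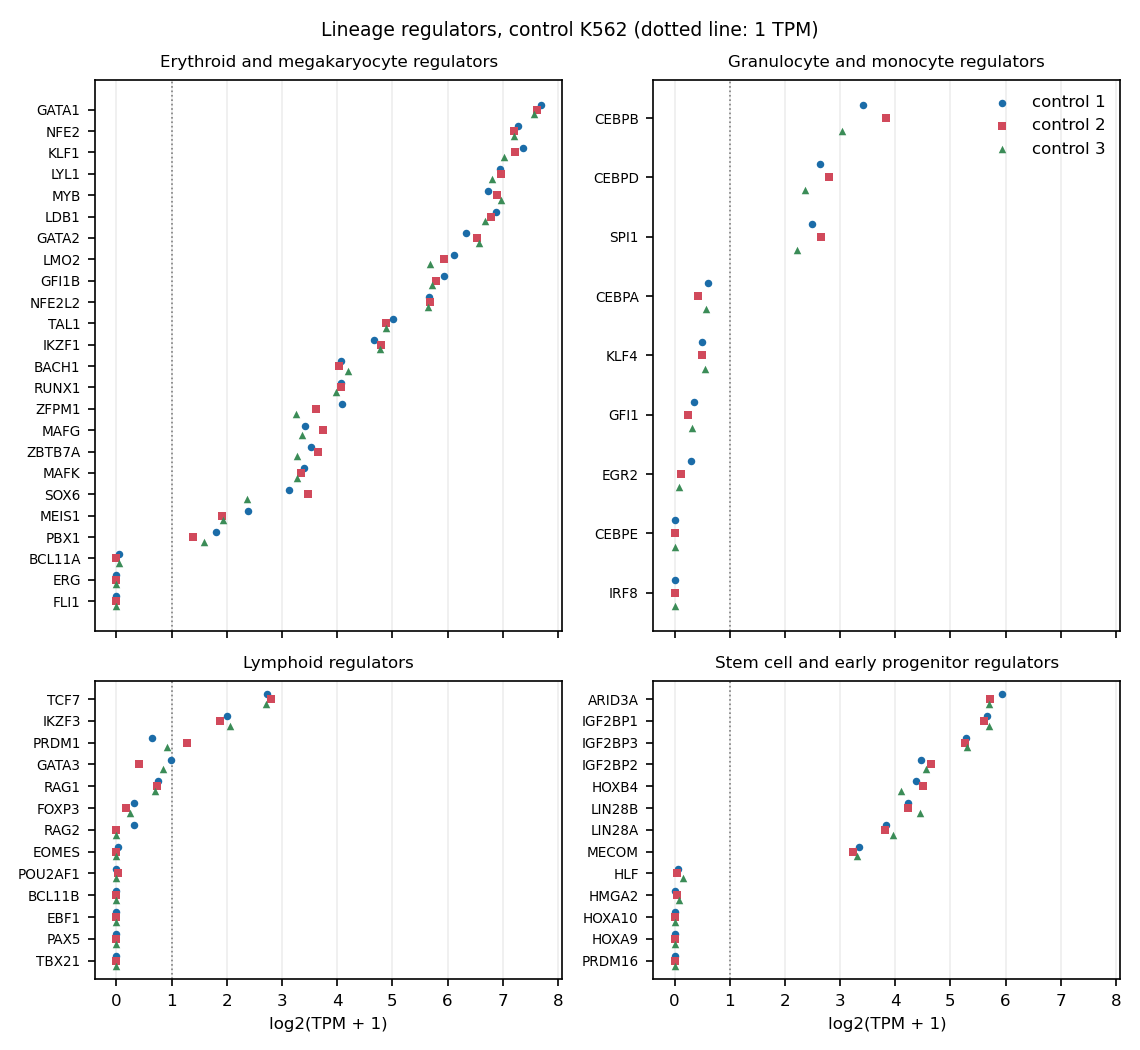
Levels of 59 of the 61 lineage regulators in control K562 cells as log2(TPM + 1), in 4 lists, with 1 point per library and a dotted line at 1 TPM. Of the erythroid and megakaryocyte regulators 21 of 24 lie right of the line, against 3 of the 9 drawn for granulocytes and monocytes, 2 of the 13 drawn for lymphocytes and 8 of 13 for stem cells and early progenitors.

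Markers of other blood cells were sparse, and some that were present stood without their partners. Of 13 megakaryocyte markers 5 were present and 4 listed at 0 (GP9, PF4, PPBP and SELP). GP1BB, a chain of the platelet receptor for von Willebrand factor, stood at 131, 147 and 65.7 TPM in controls 1, 2 and 3, lowest in control 3. GP1BA, another chain of that receptor, was at 0.55, 0.85 and 0.94 TPM. ITGA2B, the platelet integrin chain also known as CD41, stood at 1.35, 1.82 and 2.33 TPM. Of 15 granulocyte and monocyte markers 3 were present, CD33, LYZ and FUT4. CD33, a lectin of myeloid cells, stood at 18.3, 18.7 and 17.9 TPM, while MPO, ELANE, CTSG, S100A8 and S100A9, of granules and the granulocyte cytosol, were listed at 0. Of 14 lymphoid markers 3 were present. CD3D, a chain of the T cell receptor complex, stood at 45, 41.1 and 36.8 TPM, while CD3E, another chain, was at 0.1, 0.06 and 0 TPM. CD3G, of the same complex, was uneven, at 0.17, 0.05 and 9.83 TPM. PTPRC, the phosphatase CD45 of most white blood cells, stood at 46.6, 53.2 and 56.2 TPM. None of the 8 stem and progenitor markers was present. CD34 was at 0, 0.03 and 0 TPM, and 6 were listed at 0, FLT3, CD38 and PROM1 among them. Of 10 markers of mast cells, basophils and eosinophils 2 were present, KIT at 2.27, 1.98 and 2.47 TPM and PRG2 at 3, 2.33 and 1.62 TPM.

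Of 11 epithelial and fibroblast markers 5 were present. KRT8 and KRT18, the paired keratins of simple epithelia, stood at 368, 284 and 303 TPM and at 296, 256 and 250.03 TPM in controls 1, 2 and 3, and KRT19 at 176, 139 and 139 TPM. VIM, vimentin, the filament of mesenchymal and blood cells, stood at 465, 517 and 530.4 TPM, above KRT8 in every library. EPCAM, an adhesion protein of epithelia, stood at 41.4, 42.8 and 43.9 TPM. CDH1, the E-cadherin of epithelia and of red cell precursors, was at 0, 0 and 0.02 TPM, and the collagen genes COL1A1, COL1A2 and COL3A1 were under 1 TPM.

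Glycolysis was present at every step, and 1 gene supplied most of the RNA at nearly all of them. Of 28 enzyme genes 20 were present and 7 listed at 0, among them HK3, of white blood cells, PGAM2, of muscle, and PGK2 and LDHC, of the testis. GAPDH (ENSG00000111640, chromosome 12 from 6534512 to 6538374), which forms the first NADH, was the highest, at 3108, 2914 and 2952 TPM in controls 1, 2 and 3. ENO1, enolase, stood at 2219, 2024 and 2150.3 TPM and ALDOA, aldolase, at 1673, 1456 and 1498 TPM. The phosphofructokinase genes, which set the pace, summed to 244 ± 20.9 TPM and hexokinases to 287 ± 9.85 TPM (SD, n = 3 each). The lowest step was PGK1, phosphoglycerate kinase, at 207, 194 and 191 TPM, and GAPDH read 15.2 ± 0.269 times as high (SD, n = 3).

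The form in use was clear for most steps. HK1 held 90.8 ± 0.706% of the hexokinase TPM, ALDOA 96.6 ± 0.27% of aldolase, ENO1 98.9 ± 0.108% of enolase and PKM 94.0 ± 0.483% of pyruvate kinase (SD, n = 3 each). PKLR, the pyruvate kinase of liver and red cells, stood at 21.6, 21.9 and 22.3 TPM. Phosphofructokinase was mixed. PFKL, the liver type, held 51.8 ± 3.33% (SD, n = 3), ahead of PFKP, the platelet type, and PFKM, the muscle type, in every library. LDHB (ENSG00000111716, chromosome 12 from 21635342 to 21757857), the lactate dehydrogenase chain of heart, stood at 1127, 1185 and 1229.6 TPM and LDHA (ENSG00000134333, chromosome 11 from 18394560 to 18408425), that of muscle, at 961, 959 and 909.7 TPM, a ratio of 1.25 ± 0.0905 (SD, n = 3). Of 7 glucose and lactate carriers 5 were present. SLC2A1, the glucose carrier GLUT1 of red cells, stood at 125, 99.8 and 80.7 TPM, above SLC2A3 in every library. SLC16A1, a lactate carrier, stood at 78.2, 82.1 and 83 TPM, while SLC16A3, the carrier of strongly glycolytic cells, stood at 1.16, 1.39 and 1.3 TPM.

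The genes of BCR::ABL1 and of the kinases it drives were present in 26 of 27 cases. ABL1 (ENSG00000097007, chromosome 9 from 130713043 to 130887675) stood at 69.7, 63.6 and 64.4 TPM in controls 1, 2 and 3 and BCR (ENSG00000186716, chromosome 22 from 23179704 to 23318037) at 39.9, 35.8 and 34.6 TPM. A table per gene cannot part the fusion transcript from the normal ones. STAT5A, an effector of BCR::ABL1, stood at 164, 178 and 181 TPM, 2.9 ± 0.0502 times as high as STAT5B (SD, n = 3). CRKL, an adaptor that BCR::ABL1 phosphorylates, stood at 138, 127 and 132 TPM. JAK2, the kinase of the erythropoietin receptor, stood at 9.87, 10.8 and 11.1 TPM, and JAK3, that of lymphocytes, was the gene not present, at 0.01, 0 and 0 TPM.

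Of 23 targets of STAT5 and ERK 21 were present. PIM1, a survival kinase induced by STAT5, stood at 299, 329 and 380.0 TPM. MYC stood at 292, 302 and 311 TPM. The feedback inhibitors CISH and SOCS2 stood at 97.5, 92.8 and 89.6 TPM and at 90.9, 95.8 and 101 TPM. The phosphatases DUSP6 and DUSP4, which switch off ERK, were under 1 TPM in every control, DUSP6 at 0.58, 0.07 and 0.16 TPM. DUSP5, of the same family, stood at 2.21, 1.63 and 1.79 TPM. DUSP6 and DUSP4 were the only 2 genes of the list not present. Other members ranged from low to higher levels. ETV4 stood at 44.6, 48.5 and 51.6 TPM and EGR1 at 19.9, 38.6 and 36.6 TPM. SPRY2 stood at 9.78, 9.61 and 10.7 TPM and FOS at 2.28, 3.66 and 3.55 TPM. Of 19 cytokine receptor genes 9 were present, IFNGR2 the highest, at 28.5, 28.1 and 27.7 TPM. The receptor chains for interleukin 3, GM-CSF and G-CSF (IL3RA, CSF2RA, CSF2RB and CSF3R) were at 0 or under 1 TPM in every control.

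The neddylation machinery, which MLN4924 blocks, was present in 17 of 18 genes. NEDD8 (ENSG00000129559, chromosome 14 from 24216857 to 24232367) stood at 255, 243 and 209 TPM in controls 1, 2 and 3. The activating enzyme is a dimer of NAE1 and UBA3, the chain that MLN4924 binds with NEDD8. NAE1 (ENSG00000159593, chromosome 16 from 66802875 to 66873256) stood at 159.9, 158 and 186 TPM and UBA3 (ENSG00000144744, chromosome 3 from 69054730 to 69080408) at 15.5, 14.2 and 18 TPM, a ratio of 10.6 ± 0.48 (SD, n = 3). UBE2M, the conjugating enzyme for most cullins, stood at 99.4, 103 and 90.2 TPM and UBE2F, that for CUL5, at 51.6, 53.6 and 47.8 TPM. Among the cullins CUL1 was highest, at 84.3, 84.7 and 92.4 TPM, and COPS5, which removes NEDD8 from cullins, stood at 127, 124 and 129 TPM. SENP8, which matures NEDD8, was the gene not present, at 0.78, 0.53 and 0.91 TPM.

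Genes of the dividing cell were present, and a pair of its inhibitors was not. Of 25 cyclins, kinases, inhibitors and division markers 23 were present and 2 listed at 0, CDKN2A and CDKN2B. CCND3, the D cyclin of red cell precursors, stood at 268, 248 and 222 TPM in controls 1, 2 and 3, 19.7 ± 2.75 times as high as CCND2 (SD, n = 3). CCND1 lay between these D cyclins in every library, at 22.79, 19.33 and 18.15 TPM. CDK4 stood at 247, 217 and 222 TPM and CDK6, its relative, at 18.4, 19.6 and 21.5 TPM, a ratio of 11.6 ± 1.6 (SD, n = 3). MKI67 and TOP2A, markers of dividing cells, stood at 46.6, 42.9 and 46.6 TPM and at 109, 116 and 126 TPM. CDKN1A, an inhibitor of cyclin-dependent kinases, stood at 9.41, 9.93 and 10.3 TPM.

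Survival genes were led by BCL2L1. Of 15 members of the BCL2 family 11 were present. BCL2L1 (ENSG00000171552, chromosome 20 from 31664452 to 31723989), which encodes BCL-XL, the survival protein of red cell precursors, stood at 108, 104 and 100 TPM. MCL1 stood at 86.7, 81.9 and 82.7 TPM, and BCL2 at 2.93, 2.75 and 2.94 TPM. BCL2L1 lay above MCL1 and BCL2 in every library, 36.2 ± 2.01 times as high as BCL2 (SD, n = 3). Of the proteins that promote death, BAX stood at 96.5, 95 and 84.7 TPM and BCL2L11, the gene of BIM, at 6.87, 5.29 and 6.18 TPM. BMF, BCL2A1, BIK and HRK were under 1 TPM in every control.

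The genes of class I heavy chains and of class II were low or at 0. Of 19 genes of antigen presentation 8 were present. B2M (ENSG00000166710, chromosome 15 from 44711358 to 44718851), the shared chain of class I molecules, stood at 669, 706 and 649 TPM in controls 1, 2 and 3. HLA-E, the highest heavy chain, stood at 15.8, 18.3 and 19.8 TPM and HLA-C at 6.34, 7.32 and 7.12 TPM, and HLA-B was at 1.21, 0.24 and 0.73 TPM. HLA-DRA and HLA-DRB1, of class II, were listed at 0 in all 12 libraries. HLA genes share near-identical stretches, so the split between them is uncertain. TAP2, which pumps peptides, stood at 30.9, 31.9 and 27.5 TPM and TAP1, its partner, at 2.06, 1.81 and 1.75 TPM. PSMB8 and PSMB9, of the immunoproteasome, were under 1 TPM in every control, while the core subunit PSMB5 stood at 204, 198 and 196 TPM.

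Of 12 listed ligands of natural killer cells, for which K562 is a standard target, and checkpoint genes, 8 were present. NECTIN2, a ligand of DNAM-1, stood at 50.3, 47.1 and 46.2 TPM. MICA and MICB, ligands of NKG2D, stood at 30.9, 28 and 23.9 TPM and at 23.1, 23.1 and 22.4 TPM. NCR3LG1, the ligand of NKp30 known as B7-H6, stood at 20.4, 20.2 and 22.3 TPM. CD274, the checkpoint ligand PD-L1, was at 0.98, 0.14 and 0.02 TPM. Of 17 cancer testis genes 6 were present and 8 listed at 0. PRAME (ENSG00000185686, chromosome 22 from 22547701 to 22559361) stood at 911, 884 and 897 TPM, MAGEA3 at 166, 154 and 155 TPM and MAGEA1 at 57.7, 56.8 and 61.9 TPM, while CTAG1B, the gene of NY-ESO-1, was listed at 0. Cancer testis genes of 1 family are near copies, so the split within a family is uncertain.

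Listed at 0 in all 3 controls were 4762 of 19967 protein-coding genes (23.8%). Of these 3285 were also at 0 in all 9 drug-treated libraries, 42 reached 1 TPM in at least 1 of them and 6 did so in at least 3. A further 2006 genes were at 0 in 1 or 2 controls. Of these 15 held 5 TPM or more in another control, MT-ND6 among them. Of 632 listed genes 71 were at 0 in all 3 controls, 46 of them in all 12 libraries, and the highest value that any of the others reached with drug was 1.38 TPM, in HBM. GPX1, the main glutathione peroxidase of red cells, was at 0, 0 and 0.38 TPM in controls 1, 2 and 3 and at most 0.29 TPM in the drug-treated libraries, beside GPX4 at 361, 372 and 347 TPM. Whether a 0 stands for no RNA or for a failed estimate was not tested.

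The genes at low values also lay in runs. Protein-coding genes in chromosomal order formed 51 runs of at least 10 neighbours under 0.1 TPM in all 3 controls. The longest, of 71 genes on chromosome 11, held 63 olfactory receptor genes, and a run of 47 on chromosome 17 held keratin and keratin-associated genes alone. Families of this kind are silent in most tissues. A run of 25 genes on chromosome 9 was mixed, since beside a family of interferon genes it holds MTAP, which most cells use. It reached from HACD4 to TUSC1 (chromosome 9 from 20999509 to 25678444), over 4.68 Mb. It holds 16 interferon genes, CDKN2A and CDKN2B, which encode brakes of the cell cycle, and MTAP, the enzyme that recycles methylthioadenosine in most cells.

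In that run 24 of 25 genes were listed at 0 in all 3 controls and 23 in all 12 libraries. MTAP (ENSG00000099810, chromosome 9 from 21802636 to 21937651) was at 0.01, 0 and 0 TPM in controls 1, 2 and 3 and at most 0.02 TPM with drug. CDKN2A (ENSG00000147889, chromosome 9 from 21967752 to 21995301), CDKN2B, KLHL9 and HACD4 were at 0 in all 12 libraries. ELAVL2, a neuronal RNA-binding protein, reached 0.24 TPM in a drug-treated library. Of 51 other annotated genes within the interval 49 were at 0 in all 3 controls, and the highest value was 0.11 TPM. The levels changed at both edges. FOCAD, the gene before HACD4, stood at 5.97, 8.26 and 5.23 TPM, and MLLT3, before it, at 54.2, 54.9 and 58.3 TPM. CAAP1, the gene after TUSC1, stood at 11.6, 11.7 and 10.3 TPM and PLAA, after it, at 24.4, 25.1 and 26.1 TPM. Of the 16 genes that flank the run, 8 on each side, 10 were present. RNA levels alone cannot part a silent segment from a segment that the genome of the line lacks.

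**Figure D5:**
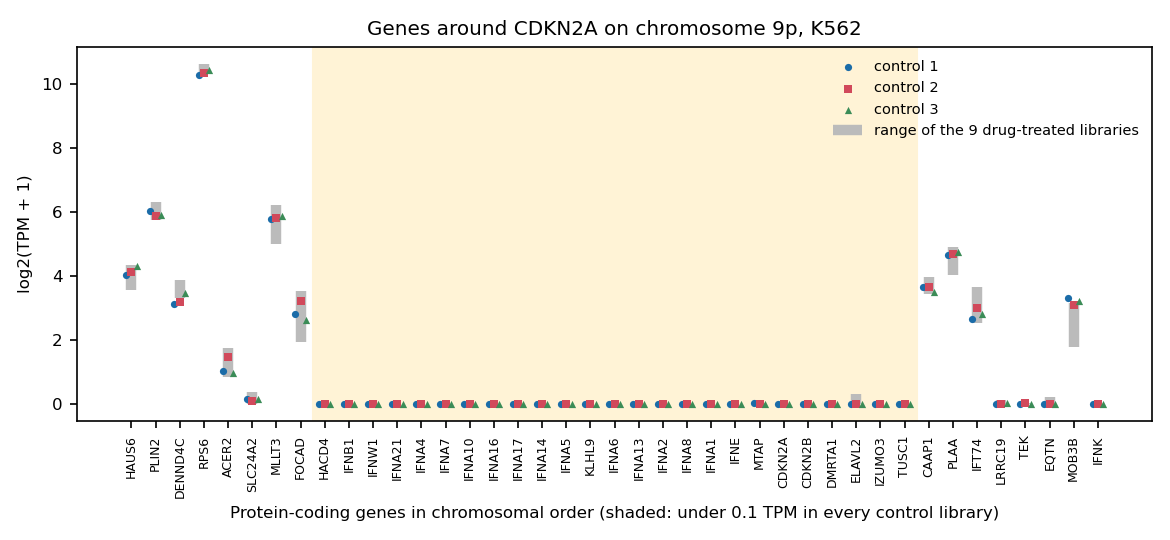
Levels of protein-coding genes in chromosomal order around CDKN2A on chromosome 9, as log2(TPM + 1), with 1 point per control library and a grey bar for the range of the 9 drug-treated libraries. The 25 shaded genes lie at or next to 0 in all libraries, while FOCAD and CAAP1 at its edges lie at 5.23 to 8.26 TPM and 10.3 to 11.7 TPM.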

How the data were processed

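RNA of 12 K562 libraries, 3 per group, was sequenced, and the 3 control libraries were described. The authors deposited 1 table of TPM values per gene, made by trimming with fastp, alignment to hg38 with HISAT2 and assembly and quantification with StringTie. Their processing notes also name featureCounts. The paper gives the versions of fastp, HISAT2 and StringTie, while no version of featureCounts is given in the sources used here. The values have 2 decimals and keep no read depth, so the precision is given only as the spread between libraries.

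Of 62232 rows in the table, 691 were loci that the assembly added and 61541 had Ensembl gene IDs. Names, classes and coordinates (GRCh38) came from GENCODE release 44, which held 61369 of the identifiers, and 172 were not matched. Shares are percentages of the summed TPM of each library. The design was a description without tests, in Python 3.11.15 with numpy 2.4.6, pandas 2.3.3 and Biopython 1.88, and figures were drawn with matplotlib 3.10.9. The rule for shares was tested on simulated data.

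The genes named were the 30 with the highest mean, members of 40 lists (632 of 633 listed genes were in the table, and some members that the counts include are not reported here by name), and the 10 with the largest SD of log2(TPM + 1) among genes with a mean of at least 10 TPM. Members and lists were chosen with earlier results of these data known. Genes that were named outside this rule (pseudogenes, overlapping gene models, long noncoding genes over ribosomal RNA genes and genes that flank runs at 0) were chosen after their values were seen. Start windows were those of RefSeq (GRCh38.p14), 35116 windows of 27305 genes. The alternatives tried were the presence minimum, the rule for a gene at 0, the denominator of the shares, ribosomal protein pseudogenes, and leaving out each library.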

Additional observations from a re-analysis of the deposited data

How the results depend on the processing

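The 10 values described (the shares of 4 families, those of the top 10, 100 and 1000 genes, and the numbers of genes present, of lineage regulators present and of genes at 0) were recomputed under 56 alternatives, of which 16 moved a share by more than 1 SD between libraries. The other 40 moved shares by less and counts by less than 1.5 times. On average 13998 genes reached 1 TPM, against 19506 at a minimum of 0.1 TPM, 10167 at 5 TPM and 11200 among protein-coding genes. The regulators present numbered 34, against 36 at 0.5 TPM and 28 at 5 TPM. The 4762 protein-coding genes at 0 became 6119 when values under 0.1 TPM were counted, 5936 when 0 in 2 libraries sufficed and 3285 when all 12 libraries were required. With mitochondrial genes left out of the denominator, globins held 2.39%, ribosomal proteins 21.4%, glycolytic enzymes 1.29%, and the top 10, 100 and 1000 genes 7.57%, 31.7% and 64.6%, while mitochondrial genes equalled 15.2% of the rest. Over protein-coding genes alone, globins held 2.23%, ribosomal proteins 19.96%, glycolytic enzymes 1.21% and the top 10, 100 and 1000 genes 13.3%, 39.8% and 70.6%, and mitochondrial genes equalled 14.2%. With their pseudogenes, ribosomal proteins held 19.4%. With both gene models over HBG1 and HBG2, an alternative chosen after seeing the data, globins held 2.32%. Leaving out 1 library gave 2.06% to 2.098% for globins, 18.3% to 18.7% for ribosomal proteins, 12.996% to 13.4% for mitochondrial genes, 1.10% to 1.14% for glycolytic enzymes, 34 regulators each time and 5042 to 5219 genes at 0, with 13947.5 to 14028.5 genes at 1 TPM or more on average. The top 10, 100 and 1000 genes then held 12.4% to 12.9%, 38.5% to 38.7% and 69.0% to 69.1%. Each shift of a share follows from the changed denominator or gene set. No paired analysis was possible because the results come from no test. The unknown depth limits what a 0 or a value under 1 TPM can show.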

Other observations

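All 14 listed chaperones were present, each with a mean of 100 TPM or more. HSP90AB1, the constant form of HSP90, stood at 2376, 2344 and 2478 TPM in controls 1, 2 and 3, 1.88 ± 0.0474 times as high as HSP90AA1, the inducible form (SD, n = 3). HSPA8, the constant HSP70, stood at 2500.1, 2341 and 2349.8 TPM, while HSPA1A and HSPA1B, near-identical stress-induced copies whose split is uncertain, stood at 481, 415 and 390.4 TPM and at 267, 217 and 219 TPM. All 13 listed cytoskeleton genes were present. TUBA1B, an alpha tubulin, stood at 2429, 2305 and 2256 TPM and ACTB, beta actin, at 1829, 1675 and 1644 TPM, 4.22 ± 0.544 times as high as ACTG1 (SD, n = 3). TUBB1, the tubulin of platelets, stood at 12.6, 10.2 and 10.2 TPM. Of 18 redox genes 16 were present, led by PRDX1, a peroxidase of the cytosol, at 1220.2, 1254 and 1380.2 TPM. PRDX2, the peroxiredoxin of red cells, stood at 552, 551 and 507 TPM and CAT, catalase, at 138, 138 and 149 TPM.

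Of 17 listed long noncoding RNAs 15 were present. MALAT1, a nuclear RNA of most cells, stood at 1074, 1028 and 970.5 TPM and NEAT1, the scaffold of paraspeckles, at 239.7, 207 and 218 TPM. Among hosts of small nucleolar RNAs SNHG29 stood at 519, 547 and 536 TPM and GAS5 at 489, 532 and 552 TPM, both below MALAT1 and above NEAT1 in every library. TERC, the RNA of telomerase, was listed at 0 in all 12 libraries. RNA labelled polyA can miss RNAs without a poly(A) tail, so this does not show that TERC was absent. Among unnamed long noncoding genes ENSG00000280441 on chromosome 21 stood at 977, 1182 and 883 TPM and ENSG00000278996 at 519.7, 593 and 284 TPM. Their spans hold 2 and 1 ribosomal RNA genes.

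The largest spread between the control libraries was in short RNAs, which a polyA library can miss where they lack a poly(A) tail. Among genes with a mean of 10 TPM or more, 9 of the 10 with the largest SD of log2(TPM + 1) span 107 to 123 bases and were at 0 in 2 of 3 libraries. RNA5S12, a copy of the ribosomal 5S RNA, was at 0, 0 and 274 TPM in controls 1, 2 and 3, and RNU6-5P, a copy of the U6 RNA, at 0, 112 and 0 TPM. The exception in length was ENSG00000288529, a protein-coding model, at 0, 0 and 148 TPM. Among 7587 protein-coding genes of 10 TPM or more the median coefficient of variation was 6.93%, against 14.3% at 1 to 10 TPM and 4.92% at 1000 TPM or more. Of the 7587 genes 71 (0.936%) had a highest value over 2 times the lowest. Control 3 was the farthest library for 30 of these 71 genes, control 1 for 23 and control 2 for 18. Against control 1, control 3 read 0.13 log2 units higher (median) in 1314 genes under 40% GC, while in 1101 genes of 60% GC or more the median difference was -0.10. The cause was not tested.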
